A study of Mus musculus with 13 samples.

Results

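Immediate early transcription factors are encoded by genes whose transcription rises within minutes of a stimulus, before any new protein has to be made. The 10 genes described here are Fos, Fosb, Fosl2, Jun, Junb, Egr1, Atf3, Nr4a1, Ier2 and Myc. Their probes were found by gene symbol, including older aliases, in the annotation of the array, which gave 14 probes among 45281, for 10 of 19057 genes with a symbol. They were followed through the hearts of 13 male C57BL/6 mice aged 8-10 weeks, and each array was taken as 1 mouse.

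The Dox + sAcvR2B-Fc group held 3 mice, which received sAcvR2B-Fc 48 hours ahead of doxorubicin (Dox). The Dox group held 5 mice given doxorubicin alone, and the PBS group held 5 mice given phosphate-buffered saline. All agents were injected intraperitoneally, and hearts were collected 20 hours after the doxorubicin or PBS injection. Doxorubicin is an anthracycline that damages DNA and is known to injure heart muscle. sAcvR2B-Fc joins the soluble ligand-binding part of activin receptor 2B to an antibody Fc part and traps ligands of that receptor, such as myostatin and activins. No mice that received sAcvR2B-Fc without doxorubicin were analysed here, so an effect of the fusion protein alone cannot be told apart from its effect in the presence of doxorubicin. Biotin-labelled RNA copies of total heart RNA were hybridised to Illumina mouse BeadChips, and in such whole-tissue RNA fewer cells of a type and less RNA per cell cannot be told apart.

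FOS, FOSB and FOSL2 proteins pair with JUN or JUNB to form AP-1, a dimeric factor that binds promoters and enhancers of genes for growth, matrix turnover and inflammation. ATF3 is a stress-induced relative that can pair with JUN proteins and often represses its targets, and EGR1 is a zinc-finger factor switched on by growth factors and by stretch. NR4A1 is an orphan nuclear receptor, IER2 is a short nuclear protein induced together with FOS, and MYC drives genes for ribosome production and cell growth. In heart muscle, several of these genes are known to be induced by pressure load, ischaemia and catecholamines, and many of their messages are short-lived.

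The deposited tables did not give every array the same sample name. The table of unprocessed signals and the series matrix named 5 of the 13 arrays alike and 8 differently, and 6 arrays had another group in the series matrix. The 7 arrays with the same group in both were Dox + sAcvR2B-Fc replicate 1, Dox replicates 1, 2 and 3, and PBS replicates 1, 2 and 5. Results below use the names of the unprocessed table, and those that follow from the other names are given after them. Which naming is right was not settled here.

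Promoters are shown for 3 members whose levels moved together between mice, Fos, Atf3 and Junb, under the names of the unprocessed table. That of Fosl2, which did not move with them, is shown as well. Each runs from 250 bases before to 50 after the RefSeq transcription start in GRCm38.p6 and is written 5′ to 3′ along the gene. Capitals mark TGACG, or CGTCA where it lies on the other strand, which is the core of the cAMP response element bound by CREB and ATF proteins.
Fos promoter, chr12:85473640-85473939, plus strand: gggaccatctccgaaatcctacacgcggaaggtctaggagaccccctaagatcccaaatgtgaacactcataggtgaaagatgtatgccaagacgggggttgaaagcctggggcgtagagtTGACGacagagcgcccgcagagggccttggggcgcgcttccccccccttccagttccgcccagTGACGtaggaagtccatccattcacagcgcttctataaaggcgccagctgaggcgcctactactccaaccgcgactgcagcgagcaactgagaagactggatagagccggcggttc
Atf3 promoter, chr1:191183284-191183583, minus strand: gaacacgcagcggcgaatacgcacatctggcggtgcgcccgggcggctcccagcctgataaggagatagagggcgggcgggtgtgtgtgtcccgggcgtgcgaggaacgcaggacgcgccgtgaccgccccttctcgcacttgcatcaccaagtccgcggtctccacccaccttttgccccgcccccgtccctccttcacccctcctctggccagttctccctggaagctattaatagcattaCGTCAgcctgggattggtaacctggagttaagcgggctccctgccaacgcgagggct
Junb promoter, chr8:84978699-84978998, minus strand: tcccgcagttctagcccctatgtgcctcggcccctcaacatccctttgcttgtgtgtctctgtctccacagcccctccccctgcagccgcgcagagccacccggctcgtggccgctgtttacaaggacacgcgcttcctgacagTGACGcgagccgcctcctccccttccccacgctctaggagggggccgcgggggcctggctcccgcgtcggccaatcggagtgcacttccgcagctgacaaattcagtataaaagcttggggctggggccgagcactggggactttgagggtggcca
Fosl2 promoter, chr5:32136222-32136521, plus strand: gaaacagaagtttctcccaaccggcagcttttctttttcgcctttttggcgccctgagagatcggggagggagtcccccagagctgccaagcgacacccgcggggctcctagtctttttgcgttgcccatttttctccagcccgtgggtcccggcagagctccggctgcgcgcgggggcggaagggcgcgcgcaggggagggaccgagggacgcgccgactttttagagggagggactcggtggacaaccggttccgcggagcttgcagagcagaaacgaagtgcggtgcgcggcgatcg
Promoters were found for 7 of the 10 genes, namely Fos, Fosb, Fosl2, Jun, Junb, Atf3 and Nr4a1. TGACG, searched on both strands, lay in 5 of these 7 (Fos, Fosb, Junb, Atf3 and Nr4a1), against 20.8% of 32851 mouse promoters of the same length. Fos held 2 copies, at -129 to -125 and at -66 to -62 from the start, and Nr4a1 held 4. The full palindrome TGACGTCA, which contains TGACG, lay in 0 of 7 and in 1.79% of all promoters. TGACTCA, the AP-1 element itself, also lay in 0 of 7 and in 5.2% of all. GCGGGGGCG, the EGR1 element, lay in 3 of 7 (Fosb, Fosl2 and Nr4a1) and in 2.91% of all. The CArG box, bound by serum response factor, lay in 0 of 7 and in 1.63% of all. Elements more than 250 bases before the start lie outside the window and were not searched. The GC content of the 7 promoters ran from 58.7% for Fos to 72.3% for Nr4a1, and the shares over all promoters were not matched for it. These matches describe letters in a window and were not tied to binding in these hearts. Fosb held TGACG and its correlations with other members did not pass. Nr4a1 was not measurable, and Egr1 had no promoter here. Whether TGACG goes with moving together was not tested.

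Of the 14 probes, 7 were detected on at least 3 arrays at a detection p-value under 0.05, the filter for testing, which 18693 of all probes passed. Fos, Jun, Atf3 and Egr1 were tested by their single probes, on all 13 arrays each above background. Junb was tested by 1 of its 2 probes and Fosl2 by 1 of its 3, again detected on 13 of 13 arrays. The Fosb probe was detected on 3 of 3 Dox + sAcvR2B-Fc arrays, 3 of 5 Dox arrays and 4 of 5 PBS arrays.

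The remaining 7 probes did not reach the filter and give no level. Nr4a1, both Myc probes, the second Junb probe and the third Fosl2 probe were well above background on 0 of 13 arrays, with raw signals between 88.5 and 139.8 and a lowest signal of any probe between 79.2 and 102 per array. The second Fosl2 probe was detected on 1 array, of the PBS group. Ier2 was detected on 2 arrays, both PBS, and on none of the Dox + sAcvR2B-Fc or Dox arrays. The second Junb probe and the 2 dim Fosl2 probes therefore differ from the bright probe of the same gene, and no difference between groups can be read from Nr4a1, Ier2 or Myc here.

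Doxorubicin alone left the 7 measured factors without a called difference from PBS, and so did doxorubicin after sAcvR2B-Fc. In all 3 comparisons 0 of 7 member probes passed an adjusted p of 0.05 in limma, where adjustment ran over all 18693 tested probes. The share of all tested probes called was 0.182% for Dox against PBS (34 probes), 0.0642% for Dox + sAcvR2B-Fc against Dox (12 probes) and 0.674% for Dox + sAcvR2B-Fc against PBS (126 probes). At such shares a count of 0 of 7 is near the background. The members' median log2 difference was -0.02 in Dox against PBS, 0.04 in Dox + sAcvR2B-Fc against Dox and 0.20 in Dox + sAcvR2B-Fc against PBS, beside 0.00, 0.02 and 0.01 over all tested probes. The comparisons share samples pairwise, so their values are not independent of each other.

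**Figure D1:**
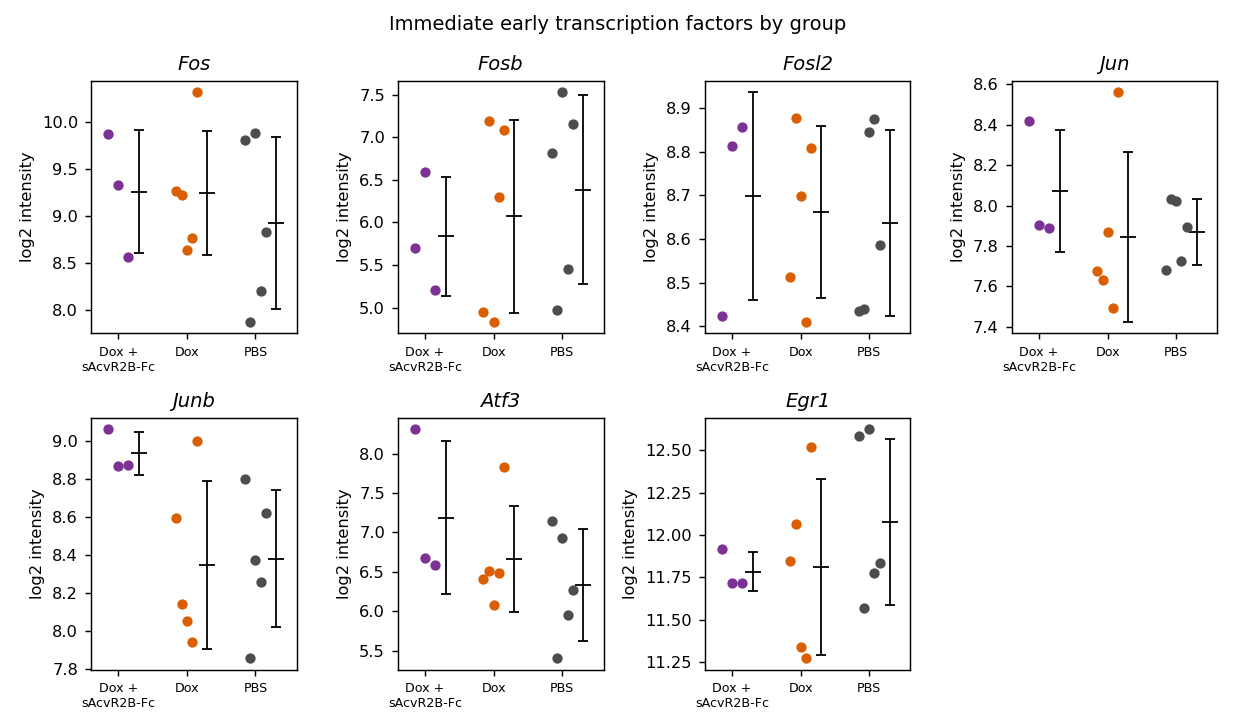
Log2 intensity of each of the 7 measured factors (vertical axis) in every mouse of the Dox + sAcvR2B-Fc (n = 3), Dox (n = 5) and PBS (n = 5) groups, with the group mean and SD drawn beside the points and vertical axes that differ between panels. Fos, Fosb and Atf3 span more than 2 log2 units among the 13 mice, and Junb is the panel in which all 3 Dox + sAcvR2B-Fc mice lie above all PBS mice.

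Fos, the prototype AP-1 subunit, had log2 intensities of 9.87, 9.33 and 8.57 in Dox + sAcvR2B-Fc mice 1 to 3. It had 9.26, 9.22, 8.64, 8.76 and 10.31 in Dox mice 1 to 5, and 9.81, 7.88, 9.88, 8.20 and 8.84 in PBS mice 1 to 5. The highest value was in Dox mouse 5 and the lowest in PBS mouse 2, and the groups overlapped throughout. Group means were 9.26 ± 0.65 (SD, n = 3) with sAcvR2B-Fc and Dox, 9.24 ± 0.66 with Dox and 8.92 ± 0.91 with PBS (n = 5 each). Dox differed from PBS by 0.32 ± 0.42 (SE, limma adjusted p = 0.839, 95% interval -0.58 to 1.21), which is smaller than the SD within either group. Dox + sAcvR2B-Fc differed from Dox by 0.02 ± 0.48 and from PBS by 0.33 ± 0.48 (adjusted p = 0.991 and 0.774 in limma). Both differences from PBS depended on single mice. With 1 mouse left out, that of Dox lay between 0.05 (without Dox replicate 5) and 0.56 (without PBS replicate 3). That of Dox + sAcvR2B-Fc lay between 0.028 (without its replicate 1) and 0.68 (without its replicate 3).

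Fosb, the FOS relative that accumulates in its truncated form during repeated stimulation of neurons, had log2 values of 5.71, 6.59 and 5.21 in Dox + sAcvR2B-Fc mice. Dox mice had 4.94, 7.19, 4.84, 6.30 and 7.09, and PBS mice had 6.81, 4.97, 7.53, 5.46 and 7.15. Values under 5 were those of Dox mice 1 and 3 and PBS mouse 2, the 3 arrays on which the probe was not detected. High and low mice therefore occurred in both larger groups. The differences were -0.31 ± 0.57 for Dox against PBS, -0.23 ± 0.65 for Dox + sAcvR2B-Fc against Dox and -0.55 ± 0.65 for Dox + sAcvR2B-Fc against PBS, with limma adjusted p between 0.723 and 0.910. The interval for Dox against PBS ran from -1.53 to 0.90, the widest interval of the members in that comparison. With 1 mouse left out, that difference lay between -0.67 (without PBS replicate 2) and -0.0050 (without Dox replicate 3). Dox + sAcvR2B-Fc against PBS lay between -0.93 and -0.23, without Dox + sAcvR2B-Fc replicate 2 and replicate 3.

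Fosl2, which encodes the AP-1 subunit FRA2, was the steadiest member. Its log2 values were 8.42, 8.81 and 8.86 in Dox + sAcvR2B-Fc mice, 8.51, 8.88, 8.70, 8.41 and 8.81 in Dox mice, and 8.43, 8.44, 8.85, 8.88 and 8.58 in PBS mice. The full range over 13 mice was 1.38-fold, and each group covered most of it. Dox differed from PBS by 0.03 ± 0.13, with a 95% interval of -0.26 to 0.31 (limma adjusted p = 0.972). Dox + sAcvR2B-Fc differed by 0.04 ± 0.15 from Dox (-0.30 to 0.37) and by 0.06 ± 0.15 from PBS (-0.27 to 0.39).

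Jun, which encodes the JUN subunit that gives AP-1 its main activating partner, had log2 values of 8.42, 7.90 and 7.89 in Dox + sAcvR2B-Fc mice. In Dox mice it had 7.68, 7.63, 7.87, 7.50 and 8.56, and in PBS mice 7.68, 8.03, 8.02, 7.73 and 7.89. Dox mouse 5 and Dox + sAcvR2B-Fc mouse 1 stood above all others, and the remaining 11 mice lay between 7.50 and 8.03. The difference was -0.02 ± 0.18 for Dox against PBS, 0.22 ± 0.21 for Dox + sAcvR2B-Fc against Dox and 0.20 ± 0.21 for Dox + sAcvR2B-Fc against PBS (limma adjusted p = 0.980, 0.698 and 0.684). Without Dox + sAcvR2B-Fc mouse 1, the last 2 differences were 0.05 and 0.03. They rose to 0.40 without Dox replicate 5 and to 0.29 without Dox + sAcvR2B-Fc replicate 3, respectively.

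Junb encodes a JUN relative that can restrain growth-promoting JUN activity, and it had the smallest adjusted p of the members in both comparisons with sAcvR2B-Fc. Its log2 values were 9.06, 8.87 and 8.87 in Dox + sAcvR2B-Fc mice. Dox mice had 8.60, 8.14, 8.05, 7.94 and 9.00, and PBS mice had 8.80, 7.86, 8.37, 8.26 and 8.62. All 3 Dox + sAcvR2B-Fc mice lay above all 5 PBS mice and above 4 of 5 Dox mice, and Dox mouse 5 lay within their range. Of all tested probes, 12.6% also separated Dox + sAcvR2B-Fc from PBS without overlap, beside 1 of 7 members. Between Dox + sAcvR2B-Fc and Dox 0 of 7 members and 7.08% of all probes did so. Dox + sAcvR2B-Fc exceeded Dox by 0.59 ± 0.24 (1.50-fold, unadjusted p = 0.0276, adjusted p = 0.421 in limma) and PBS by 0.55 ± 0.24 (1.47-fold, unadjusted p = 0.0363, adjusted p = 0.264 in limma), so neither passed. An unadjusted p under 0.05 was reached by 10.8% and 16.4% of all tested probes in these comparisons, against 1 of 7 members in each. Dox differed from PBS by -0.03 ± 0.21 (limma adjusted p = 0.976), and there 0 of 7 members had an unadjusted p under 0.05, against 11.0% of all tested probes.

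The summed signals of several marker lists of other cells differed between the same groups, and their part in the Junb values was not tested. The summed linear signal of 5 lymphatic endothelial markers was 1437 to 1560 in Dox + sAcvR2B-Fc mice, against 2261 to 2448 in Dox mice and 1961 to 2463 in PBS mice. Of 5 atrial markers 2 passed the detection filter (Myl7, Sln and Bmp10 did not), and they summed to 6310 to 8371 in Dox + sAcvR2B-Fc mice, against 8641 to 19697 in Dox mice and 9657 to 12662 in PBS mice. Both sums separated the Dox + sAcvR2B-Fc mice from the other 10 without overlap, on the low side. Of all tested probes, 7.08% separated Dox + sAcvR2B-Fc from Dox and 12.6% separated it from PBS without overlap, in either direction. Within the lymphatic list, 1 of 5 genes was called lower against Dox and 1 of 5 against PBS. In the other direction, 1 of 5 was higher than in Dox and 3 of 5 were higher than in PBS (median log2 difference 0.07). The lymphatic sum therefore does not speak for each of its markers. Of the 2 atrial markers 0 were higher in either comparison. The 3 erythroid markers that passed summed to 6264 to 11454 in Dox + sAcvR2B-Fc mice and 7671 to 19016 in Dox mice, against 13384 to 20153 in PBS mice. The summed linear signal of 6 macrophage markers was 2600 to 4259 in Dox + sAcvR2B-Fc mice, against 2347 to 2760 in Dox mice and 1705 to 2708 in PBS mice. These ranges overlapped. The single called gene among them, Vsig4, a complement receptor of resident macrophages, was 2.83 ± 0.27 higher in log2 than in Dox mice (limma adjusted p = 0.000187). The summed signal of 5 neutrophil markers was 468 to 509 in Dox + sAcvR2B-Fc mice and 367 to 891 in Dox mice, against 132 to 207 in PBS mice, so it set both doxorubicin groups apart from PBS but not from each other. Among all tested probes, 2.55% separated Dox from PBS without overlap, and 12.6% separated Dox + sAcvR2B-Fc from PBS. Cxcr2 and Ly6g, of the 7 listed neutrophil genes, did not pass the detection filter. Of the 6 listed T and B cell markers and the 5 adipocyte markers 0 passed it. Heart muscle markers were present, with 8 of 9 passing (Tnnt2 did not) and summed signals of 92633 to 113518 in Dox + sAcvR2B-Fc mice, 105289 to 119665 in Dox mice and 102999 to 127156 in PBS mice.

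Atf3, the stress-response factor, had log2 values of 8.31, 6.67 and 6.58 in Dox + sAcvR2B-Fc mice. It had 6.41, 6.51, 6.07, 6.49 and 7.83 in Dox mice, and 7.14, 5.40, 6.93, 5.95 and 6.27 in PBS mice. Dox + sAcvR2B-Fc mouse 1 and Dox mouse 5 were the highest of the 13, while the other 2 Dox + sAcvR2B-Fc mice lay below 2 of the PBS mice. Dox + sAcvR2B-Fc exceeded PBS by 0.85 ± 0.47, the largest difference among the members in size, at a limma adjusted p of 0.395. That value depended on single mice, with 0.29 without Dox + sAcvR2B-Fc replicate 1 and 1.15 without Dox + sAcvR2B-Fc replicate 3. The difference from Dox, 0.52 ± 0.47 (limma adjusted p = 0.686), became -0.04 and 0.83 without the same mice. Dox exceeded PBS by 0.33 ± 0.41 (limma adjusted p = 0.832), by 0.03 without Dox replicate 5 and by 0.53 without PBS replicate 1.

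Egr1, the growth-factor and stretch response factor, had log2 values of 11.92, 11.72 and 11.72 in Dox + sAcvR2B-Fc mice. Dox mice had 11.85, 12.07, 11.34, 11.27 and 12.52, and PBS mice had 12.58, 11.57, 12.62, 11.78 and 11.83. The 3 Dox + sAcvR2B-Fc mice lay close together, inside the range of both other groups. Dox differed from PBS by -0.27 ± 0.25 (limma adjusted p = 0.759), Dox + sAcvR2B-Fc from Dox by -0.03 ± 0.29 (0.977) and Dox + sAcvR2B-Fc from PBS by -0.29 ± 0.29 (0.661). The difference from PBS lay between -0.45 (without Dox replicate 5) and -0.13 (without PBS replicate 3) for Dox, and between -0.42 (without PBS replicate 2) and -0.16 (without PBS replicate 3) for Dox + sAcvR2B-Fc.

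**Figure D2:**
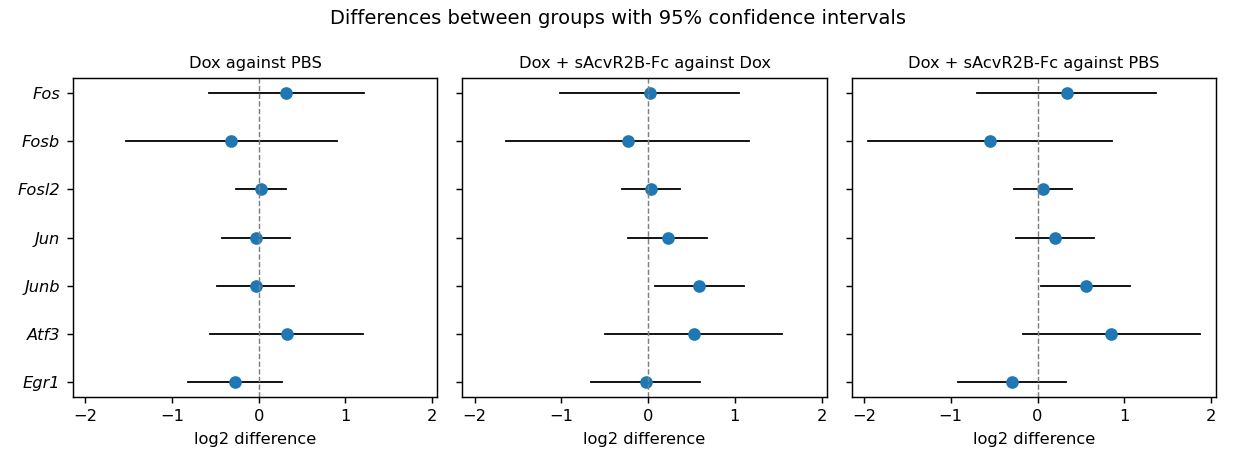
Log2 difference of each measured factor with its 95% confidence interval from limma, in panels for Dox against PBS, Dox + sAcvR2B-Fc against Dox and Dox + sAcvR2B-Fc against PBS. The Junb intervals in both comparisons with sAcvR2B-Fc lie above 0 before adjustment for 18693 probes, every other interval crosses 0, and the Fosb intervals are the widest.

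Several members varied far more between mice of 1 group than most genes did. The within-group SD of Fosb was 1.05 in log2, above that of 99.9% of all tested probes. For Fos it was 0.767 and for Atf3 0.758, each above 99.3% of tested probes. Egr1 had 0.455, above 93.8%, Junb 0.365, above 86.3%, and Jun 0.316, above 77.8%. Fosl2 had 0.213, above 42.8%, close to the median of 0.231 over all tested probes. Since dim probes vary more, each was also set among the 1000 probes nearest to it in mean intensity, and there the SD exceeded that of 99.2% for Fos, 98.2% for Atf3, 98.9% for Egr1 and 100% for Fosb. Across the 13 mice Fos covered a 5.37-fold range, Fosb 6.44-fold, Atf3 7.49-fold and Egr1 2.55-fold, beside a median of 1.76-fold over all tested probes. The low end of the Fosb range lay on arrays where its probe was not detected, so its range and SD reach background. The lowest Atf3 value, in PBS mouse 2, had a detection p-value of 0.031. The SD depends on the grouping, and with the series matrix names it was 0.911 for Fosb, 0.549 for Fos, 0.542 for Atf3, 0.390 for Egr1, 0.411 for Junb, 0.197 for Jun and 0.180 for Fosl2, beside a median of 0.247. Fosb then exceeded 99.5% of all tested probes, Fos 94.8%, Atf3 94.6%, Junb 87.4%, Egr1 85.2%, Jun 30.6% and Fosl2 24.4%.

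**Figure D3:**
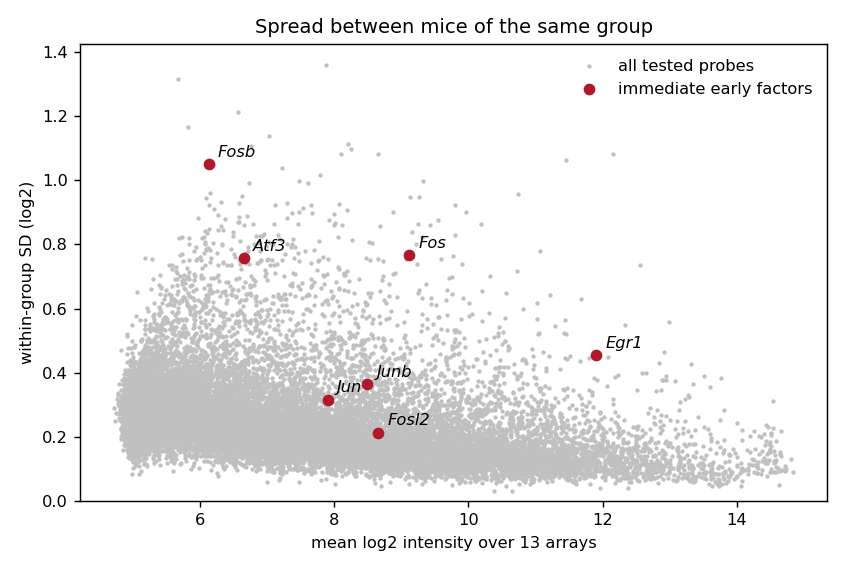
Within-group SD of log2 intensity (vertical axis) against mean log2 intensity over the 13 arrays (horizontal axis) for all 18693 tested probes (grey) and the 7 measured factors (red). Fosb, Fos, Atf3 and Egr1 lie along the upper edge for their intensity, and Fosl2 lies inside the bulk.

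Fos, Atf3 and Egr1 rose and fell together between mice of the same group, and Junb moved with Fos and Atf3. Correlations were taken over the 13 mice after each group's mean was removed, for the 21 pairs of the 7 measured genes, with two-sided permutation tests of 100000 resamples within groups. Of these 21 pairs 20 had a positive r, the median r was 0.476, and 5 passed after Benjamini-Hochberg adjustment over the 21. Spearman's rho also gave 5. Pairs of other genes were not tested in this way, so no share over all genes stands beside these counts. Genes outside the members also followed them, up to r = 0.937 with the members' mean for Zfp248, against a median of 0.019 over all genes. Whether such correlation is particular to the members was not tested. With the series matrix names for the groups, 0 of 21 passed, as given further on.

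Fos and Atf3 correlated with r = 0.907 (permutation p = 0.00016, adjusted p = 0.0022) and rho = 0.830 (adjusted p = 0.0213). Fos and Egr1 had r = 0.903 (permutation p = 0.00021, adjusted p = 0.0022) and rho = 0.874 (adjusted p = 0.0063), and Atf3 and Egr1 had r = 0.786 (permutation p = 0.00068, adjusted p = 0.00476) and rho = 0.725 (adjusted p = 0.0256). These 3 pairs passed in all 13 sets that leave out 1 mouse. Without the 2 mice farthest from the median of the first gene, r was 0.853, 0.853 and 0.785. Within the Dox group r was 0.945, 0.946 and 0.818, and within the PBS group 0.979, 0.973 and 0.958, each over 5 mice and so given without a test.

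Junb joined them less tightly, with r = 0.776 to Fos (permutation p = 0.00412, adjusted p = 0.0173, rho = 0.736, adjusted p = 0.0286) and r = 0.740 to Atf3 (permutation p = 0.00208, adjusted p = 0.0109, rho = 0.698, adjusted p = 0.0256). Both of these pairs passed in 11 of 13 sets with 1 mouse left out, and r without the 2 farthest mice was 0.612 and 0.518. Junb with Egr1 (r = 0.756) and Fos with Fosb (r = 0.696) each had a permutation adjusted p of 0.0759 and did not pass. Jun reached r = 0.579 with Atf3 (permutation adjusted p = 0.128), which fell to -0.07 without the 2 farthest mice. Fosl2 had r between -0.13 and 0.29 with the other 6 and passed with none.

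The mice behind these correlations can be named. Dox mouse 5 was above its group's mean for 7 of 7 members, by 1.07 for Fos, 1.17 for Atf3 and 0.71 for Egr1 in log2. PBS mouse 3 was above for 6 of 7, and PBS mouse 1 and Dox + sAcvR2B-Fc mouse 1 for 5 of 7. PBS mouse 2 was below for 6 of 7, by 1.04 for Fos and 0.93 for Atf3, and its Jun was above. The array of Dox mouse 5 had the lowest raw median signal (101.5, in a range up to 136.3) and the fewest detected probes (15989, in a range up to 17939), while PBS mouse 3, with 113.7 and 16474, was inside both ranges. Raw signals of Dox mouse 5 were 840.4 for Fos, 214.2 for Atf3 and 3942.8 for Egr1. These lay inside the raw ranges of the Dox group (441.1 to 939.2, 156.9 to 231 and 2361.4 to 5397.8). The raw Jun signal of Dox mouse 5 (300) was the lowest of its group. For these genes its place above the other Dox mice was seen only after normalization. Over all 13 arrays, with group means removed, log2 raw median signal and number of detected probes correlated with Fos at r = -0.04 and 0.08. Of 14 such relations for the 7 members none passed (lowest permutation adjusted p = 0.541, for Fosl2). Without the 2 arrays farthest from the median of each quantity, the Fos values were 0.24 and 0.37. A correlation over 13 arrays cannot show whether the low signal of 1 array bears on its values, and this was not tested. Of 10 marker lists of cell types none passed with Fos (permutation adjusted p = 0.947 for each r), the strongest being endothelial genes at r = 0.486.

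**Figure D4:**
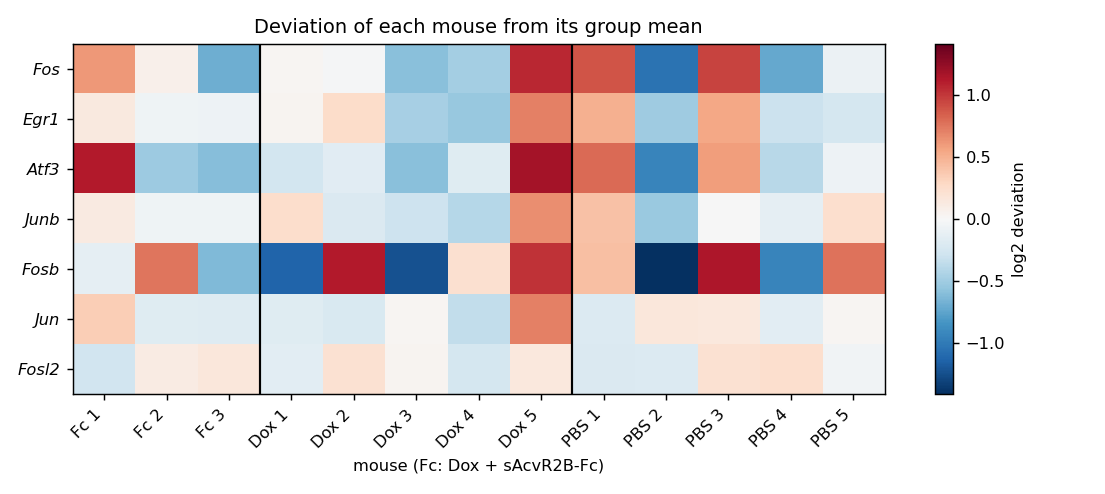
Deviation of each measured factor (rows) from the mean of its group in each of the 13 mice (columns, Dox + sAcvR2B-Fc left, Dox in the middle, PBS right), in log2 units on a colour scale from blue (below) to red (above). Dox mouse 5 is red in every row, PBS mouse 2 is blue in the rows of Fos, Egr1, Atf3, Junb and Fosb, and the Fosl2 row stays pale.

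With the series matrix names, the same arrays gave another picture for these genes. There the Dox + sAcvR2B-Fc group consists of the arrays called PBS 3, Dox 5 and Dox + sAcvR2B-Fc 1 above, the 3 arrays with the highest Fos. Fos was then higher in Dox + sAcvR2B-Fc than in Dox by 1.24 ± 0.35, Atf3 by 1.38 ± 0.35, Jun by 0.58 ± 0.15, Fosb by 1.24 ± 0.57 and Egr1 by 0.60 ± 0.26, while Junb differed by 0.43 ± 0.27 and Fosl2 by -0.07 ± 0.14. Each limma adjusted p was 0.9999, as 0 of 18693 probes were called under those names. An unadjusted p under 0.05 was reached by 5 of 7 members, against 3.04% of all tested probes (568), and the groups did not overlap for 3 of 7 (Fos, Jun and Atf3), against 2.26% of all. Against PBS, 4 of 7 members (Fos, Jun, Atf3 and Egr1) had an unadjusted limma p under 0.05, beside 3.33% of all tested probes, and 1 of 7 did not overlap (Fos), beside 2.62%. In Dox against PBS 0 of 7 had an unadjusted limma p under 0.05, beside 1.48%, and the Fos difference was -0.14 ± 0.30. Several members correlate over the same arrays, so these counts out of 7 are not counts of independent genes.

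The correlations over 13 arrays also differed between the namings, since the group means are removed with them. Under the series matrix names 0 of the 21 pairs passed after adjustment, with 3 at an unadjusted permutation p under 0.05, and Fos had r = 0.730 with Atf3 and 0.602 with Egr1. With no group mean removed at all, over the 13 arrays, these values were 0.876 and 0.759. The 7 arrays without a conflict of group cannot test this, since they allow 36 arrangements within groups and a smallest permutation p of 0.0278, and 12 of the 21 pairs would have to reach it for any to pass. There r was 0.993 for Fos with Atf3, 0.924 for Fos with Egr1 and 0.907 for Atf3 with Egr1. Jun had negative values on those arrays, with r = -0.95 to Fos, -0.93 to Atf3 and -0.99 to Egr1. No member was called on those 7 arrays in any comparison, the lowest limma adjusted p being 0.793 for Dox against PBS, 0.958 for Dox + sAcvR2B-Fc against Dox and 0.573 for Dox + sAcvR2B-Fc against PBS. The Dox + sAcvR2B-Fc group then holds 1 array, which is assumed to vary like the others.

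A gene outside the members shows how the namings sort the arrays by another known response. Cdkn1a, which p53 switches on and which arrests the cell cycle through p21, ranged over log2 values of 9.92 to 11.13 in Dox + sAcvR2B-Fc, 9.66 to 10.89 in Dox and 7.16 to 8.59 in PBS under the unprocessed table's names. Under the series matrix names it ranged over 8.28 to 10.97, 8.28 to 10.89 and 7.16 to 11.13 in the same groups. The groups that received doxorubicin thus lay apart from PBS under the first naming and overlapped it under the second.

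**Figure D5:**
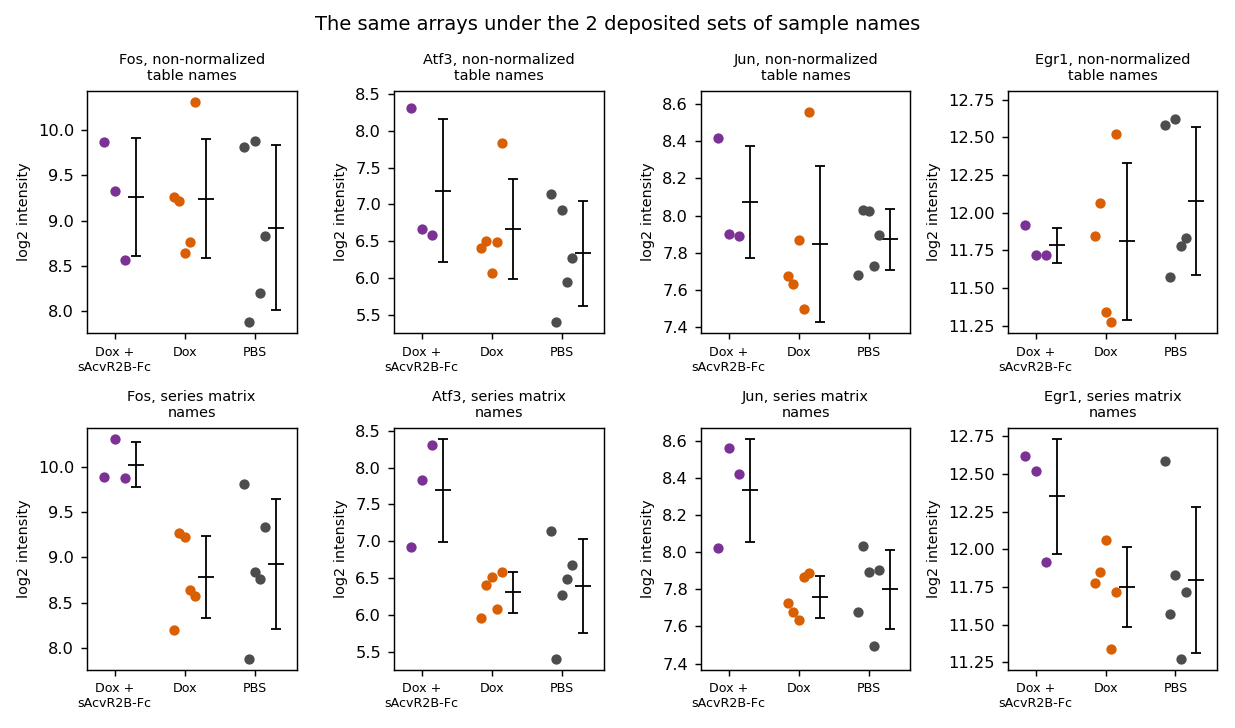
Log2 intensity of Fos, Atf3, Jun and Egr1 in the same 13 arrays, grouped by the sample names of the unprocessed table (upper row) and by those of the series matrix (lower row), with group means and SD beside the points. In the lower row the 3 Dox + sAcvR2B-Fc arrays lie above every Dox array for Fos, Atf3 and Jun, and in the upper row the groups overlap for all 4 genes.

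Other genes of the immediate early programme were called in few cases. Each gene stands with its brightest passing probe, and adjustment ran over all tested probes. Across 10410 genes 0.211% were called in Dox against PBS, 0.0768% in Dox + sAcvR2B-Fc against Dox and 0.74% in Dox + sAcvR2B-Fc against PBS. Among 10 tested partners of the AP-1 and ATF families 0 were called in each comparison, and their median difference was -0.02, 0.02 and 0.04 in the same order, beside 0.00, 0.02 and 0.00 over all genes. Jund, the constitutive JUN family member, differed between Dox + sAcvR2B-Fc and Dox by 0.60 ± 0.22 (limma adjusted p = 0.404), and Jdp2, a repressor that dimerises with JUN, by 0.55 ± 0.21 (0.415). Atf4, the integrated stress response factor, differed between Dox and PBS by 0.35 ± 0.16 (0.467), and Atf7, an ATF2 relative, between Dox + sAcvR2B-Fc and PBS by 0.40 ± 0.15 (0.194). Crem, which yields repressors of cAMP-driven transcription, differed from PBS by -0.41 ± 0.18 with Dox + sAcvR2B-Fc (0.277).

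Of 42 other tested immediate early and early response genes, 0 were called in Dox against PBS and in Dox + sAcvR2B-Fc against Dox, and 1 rose in Dox + sAcvR2B-Fc against PBS. That gene was Sgk1, a serum- and glucocorticoid-induced kinase, with 12.84 ± 0.15 in Dox + sAcvR2B-Fc (SD, n = 3), 12.18 ± 0.16 in Dox and 12.03 ± 0.16 in PBS (n = 5 each). It was 1.75-fold higher than in PBS (0.81 ± 0.13, limma adjusted p = 0.0138), and its difference from Dox, 0.66 ± 0.13, did not pass (limma adjusted p = 0.128). The call ended without Dox + sAcvR2B-Fc replicate 2 or 3, with median scaling and under the series matrix names, where the difference was 0.07. Id1, an inhibitor of basic helix-loop-helix factors and a target of BMP signalling, differed by 0.63 ± 0.16 from Dox (limma adjusted p = 0.267) and by 0.60 ± 0.16 from PBS (0.0842). Id2, its relative, differed by 0.68 ± 0.23 between Dox + sAcvR2B-Fc and Dox (0.392), and Bhlhe40, a clock-linked repressor, by -0.75 ± 0.20 between Dox + sAcvR2B-Fc and PBS (0.0891). In Dox against PBS the smallest p-values were those of Hes1, a Notch target (-0.46 ± 0.14, limma adjusted p = 0.198), Cebpb, an acute-phase factor (0.59 ± 0.20, 0.277), and Ccn2, a matricellular growth factor (0.70 ± 0.25, 0.285). The list's median difference was 0.10, 0.10 and 0.15 in the 3 comparisons, beside 0.00, 0.02 and 0.00 over all genes.

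Among 17 tested feedback genes, which shut the early response off by dephosphorylating kinases, degrading messages or binding the factors, 1 rose in Dox + sAcvR2B-Fc against PBS and 0 were called in the other comparisons. It was Nfkbia, which encodes the NF-kappaB inhibitor IkB-alpha, at 8.69 ± 0.18 in Dox + sAcvR2B-Fc (SD, n = 3), 8.19 ± 0.22 in Dox and 7.85 ± 0.20 in PBS (n = 5 each). It was 1.79-fold higher than in PBS (0.84 ± 0.15, limma adjusted p = 0.0254), a call that remained in 8 of 13 sets leaving out 1 mouse and ended with median scaling and under the series matrix names (0.11). Tnfaip3, another NF-kappaB inhibitor, differed by -0.41 ± 0.16 in Dox against PBS (limma adjusted p = 0.366) and by -0.47 ± 0.19 in Dox + sAcvR2B-Fc against PBS (0.228). Nab2, a co-repressor of EGR1, differed by 0.39 ± 0.17 between Dox + sAcvR2B-Fc and Dox (0.457), and Zfp36, which speeds the decay of Fos-type messages, by 0.54 ± 0.26 (0.474). The phosphatase genes Dusp10 (-0.28 ± 0.17, Dox against PBS, 0.568) and Dusp2 (0.48 ± 0.23, Dox + sAcvR2B-Fc against PBS, 0.321) did not pass either. The list had medians of -0.06, 0.06 and -0.03 in the 3 comparisons.

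Of 28 tested kinases and factors that act on immediate early promoters 0 were called in each comparison, with medians of -0.02, -0.03 and -0.03. The smallest p-values belonged to Mapk12, a p38 kinase of striated muscle (-0.46 ± 0.13 in Dox against PBS, limma adjusted p = 0.182, and -0.45 ± 0.15 in Dox + sAcvR2B-Fc against PBS, 0.149), and Mapk8, which encodes the JUN kinase JNK1 (0.34 ± 0.10 in Dox + sAcvR2B-Fc against PBS, 0.126). Mef2c, a muscle transcription factor, differed from PBS by -0.65 ± 0.24 with Dox (0.326) and by -0.74 ± 0.28 with Dox + sAcvR2B-Fc (0.204). Mrtfb, a coactivator of serum response factor, differed by 0.53 ± 0.20 in Dox against PBS (0.312). Against Dox, Dox + sAcvR2B-Fc differed by 0.24 ± 0.09 for the kinase Map2k5 (0.412), by 0.24 ± 0.13 for the CREB coactivator Crtc1 (0.513) and by -0.28 ± 0.15 for Srf, serum response factor itself (0.514).

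With both Myc probes at background, 20 tested genes of the MYC network were examined and 0 were called in each comparison, with medians of -0.01, 0.13 and 0.03. Mxi1, a MYC antagonist that competes for MAX, differed by -0.95 ± 0.33 in Dox + sAcvR2B-Fc against Dox (limma adjusted p = 0.396), and Mxd1, of the same family, by -0.37 ± 0.16 (0.445). Cdk4, a cell cycle kinase and MYC target, differed by 0.26 ± 0.10 in Dox + sAcvR2B-Fc against Dox (0.418) and by -0.17 ± 0.09 in Dox against PBS (0.512). Cad, a pyrimidine synthesis enzyme, differed by -0.19 ± 0.11 in Dox against PBS (0.532). Mlxip, Odc1 and Npm1 differed between Dox + sAcvR2B-Fc and PBS by 0.25 ± 0.12, 0.20 ± 0.10 and 0.22 ± 0.11, with limma adjusted p from 0.320 to 0.345.

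Of 10 tested p53 and stress targets, 1 was called in Dox against PBS and 2 in Dox + sAcvR2B-Fc against PBS. The shares of all genes called there were 0.211% and 0.74%. An unadjusted limma p under 0.05 was reached by 7 of 10 and 9 of 10 there, against 11.0% and 16.4% of all tested probes. In Dox + sAcvR2B-Fc against Dox it was reached by 2 of 10, against 10.8%. In Dox against PBS 1 rose, Cdkn1a, by 2.50 ± 0.31 (limma adjusted p = 0.0095), and in Dox + sAcvR2B-Fc against PBS 2 rose, Cdkn1a by 2.70 ± 0.36 (limma adjusted p = 0.0047) and Phlda3, an AKT inhibitor, by 1.56 ± 0.29 (2.95-fold, limma adjusted p = 0.0299). Ddit4, an mTORC1 inhibitor, differed by 1.03 ± 0.25 in Dox against PBS (limma adjusted p = 0.135). In Dox + sAcvR2B-Fc against Dox 0 were called, where Plk2 differed by -0.39 ± 0.15, Sesn2 by 0.66 ± 0.26 and Zmat3 by -0.16 ± 0.16 (limma adjusted p from 0.416). Under the series matrix names the Cdkn1a differences were 0.94 and 0.87 and Phlda3 was at -0.10, and none was called. The Cdkn1a call in Dox against PBS ended without Dox replicate 1, and also on the arrays with the same group under both namings. Its call in Dox + sAcvR2B-Fc against PBS ended without Dox + sAcvR2B-Fc replicate 2. The Phlda3 call remained in 6 of 13 sets leaving out 1 mouse. It also ended when all probes were tested without a filter and with the replicate number as a block. The list's median was 0.52 in Dox against PBS, 0.03 in Dox + sAcvR2B-Fc against Dox and 0.72 in Dox + sAcvR2B-Fc against PBS.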

How the data were processed

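Total RNA from 13 mouse hearts was hybridised to Illumina BeadChips, per the labels' protocols. The deposited unprocessed table holds 1 intensity per probe and array, with no background subtracted, and a detection p-value beside each, per the file headers. The deposited series matrix holds intensity values that, judged from the values, were background-subtracted and quantile-normalized by the authors. The sources used here name neither software nor steps. It served only for alternatives, with values under 1 set to 1.

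Signals were corrected, quantile-normalized and log2-transformed with neqc in limma 3.58.1 (R 4.3.3, offset 16). Probes detected at p under 0.05 on at least 3 arrays were fitted by limma with 3 groups in 1 model and Benjamini-Hochberg adjustment. The fit was tested on simulated data. A fold change on this scale understates that of dim probes because of the offset. Precision is limited by the number of arrays, and where nothing says that samples are separate extractions, p-values measure the spread between these samples.

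Arrays took their groups from sample names that the labels repeat. Each series matrix column was paired with the array of highest Spearman correlation (at least 0.999994, next best at most 0.904), which showed the conflict of names. Of 45281 probes 34885 have 1 gene symbol in the platform annotation, 18 several and 10378 none here. Promoters are RefSeq's, GRCm38.p6.

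The members and gene lists were chosen with earlier results of these data known. Named genes outside the members are those called and up to 3 per list and comparison with the smallest p-value. Alternatives covered background, scaling, filter, array weights, sample names, replicate block and single arrays. Those for the correlations and for called genes outside the members were added after seeing the data.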

Additional observations from a re-analysis of the deposited data

Results flagged for a closer look

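Of 14 groups of 5 values examined for a member far from its group, 1 was marked, and chance marks about 1 in 20 groups. Atf3 in Dox replicate 5 had a log2 intensity of 7.833, and its gap to the next Dox mouse was 0.753 of the whole range of the Dox group, above Dixon's critical value of 0.71 for 5 samples. The other 4 Dox mice lay between 6.07 and 6.51. Before normalization, the signal of Dox replicate 5 was 214.2, inside the raw range of the Dox group (156.9 to 231). The gap was thus seen only on the normalized scale. The series matrix gives this array the name of a Dox + sAcvR2B-Fc sample. Groups of 3 were not examined.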

How the results depend on the processing

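In 231 values of member differences under other settings and 273 with 1 array left out, limma called 0 (lowest adjusted p 0.0889 and 0.177), and 24 and 31 changed sign. By setting, in the order Dox against PBS, Dox + sAcvR2B-Fc against Dox, Dox + sAcvR2B-Fc against PBS, all probes called numbered 34, 12 and 126 as reported. Normexp with offset 50 gave 65 and 289 in the first and the last. Median scaling gave 25 in the last, and in the first 43 higher and 0 lower against 26 and 8; it moved the median of all probes to 0.12 and 0.13 in those comparisons with PBS, and Jun and Junb in Dox against PBS to 0.14 and 0.13. Testing all probes gave 9 in the first, probes detected on every array of a group 216 in the last, and only the 2 groups compared 7 in the second. Array weights gave 165, 31 and 301, and turned Fosl2 in the first to -0.047 and Fos and Egr1 in the second to -0.068 and 0.078. Series matrix names gave 0, 0 and 0 (277, 568 and 622 at an unadjusted p under 0.05), also with the series matrix values (321, 612 and 633). Arrays with the same group in both tables gave 0, 0 and 6 (1222 and 916 unadjusted in the first and second).

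Signs changed under the series matrix names, and with its values as well, for Fos (-0.14 and -0.14) and Atf3 (-0.091 and -0.072) in Dox against PBS, for Fosb (1.24 and 1.86), Fosl2 (-0.071 and -0.073) and Egr1 (0.60 and 0.59) in Dox + sAcvR2B-Fc against Dox, and for Fosb (0.41 and 0.56), Egr1 (0.56 and 0.55) and Phlda3 (-0.097 and -0.11) in Dox + sAcvR2B-Fc against PBS. On the same-group arrays Fosb was 0.049, Fosl2 -0.27 and Egr1 0.17 in Dox + sAcvR2B-Fc against Dox, and Fosl2 -0.063 in Dox + sAcvR2B-Fc against PBS. The regrouping of arrays is what these settings change, and which grouping is right was not tested.

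With 1 array left out, probes called ranged from 2 (without Dox replicate 1) to 387 (without Dox replicate 2), from 9 to 13, and from 14 (without Dox + sAcvR2B-Fc replicate 2) to 353 (without Dox replicate 2). In Dox against PBS, Fosl2 ranged from -0.029 to 0.088, Jun from -0.20 to 0.063 and Junb from -0.20 to 0.070. In Dox + sAcvR2B-Fc against Dox, Fos ranged from -0.29 to 0.36, Fosb from -0.61 to 0.078, Fosl2 from -0.043 to 0.17, Atf3 from -0.036 to 0.83 and Egr1 from -0.16 to 0.15, and in Dox + sAcvR2B-Fc against PBS Fosl2 ranged from -0.018 to 0.20. Of the 21 correlations, 5 passed as reported, 11 with median scaling, 0 under the series matrix names, 0 with its values (3 each at an unadjusted permutation p under 0.05), and 3 (without PBS replicate 2) to 6 (without PBS replicate 3) with 1 array left out. The same-group arrays gave 0, a count that 36 arrangements with a smallest p of 0.0278 all but fix, and r there was 0.993 for Fos with Atf3 and 0.924 for Fos with Egr1.

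The replicate numbers showed no clear pairing of the mice. Over 11 same-numbered pairs r ran from -0.27 to 0.39, with a median of 0.05 against -0.02 for other pairs. Of 13 arrays, 2 correlated best with their own number. The numbers differ between the namings, so these values cannot show that no pairing exists. With the replicate number as a block, 4, 21 and 213 probes were called, member calls stayed at 0, and Fos in Dox + sAcvR2B-Fc against Dox was -0.019. A block for the slide was not run, since the files name none. Raw signals near background limit what can be said of Nr4a1, Ier2 and Myc.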

Other observations

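Genes outside the members with a pattern most like theirs were sought among 10403 genes, by Pearson correlation with the mean of the 7 standardised members over the 13 arrays. The 5 highest were Dcaf1 (r = 0.853), Fbxo40 (0.835), Pcdhgb6 (0.815), Tmem39a (0.793) and Kcns1 (0.784). With group means removed they were Zfp248 (0.937), Matn4 (0.875), Kcns1 (0.870), Mgat1 (0.868) and Tmem164 (0.852). The median r over all genes was 0.025 and 0.019, and the arrays are shared by all these values, so they stand as a description without a test. Kcns1, a potassium channel subunit, was the gene present in both sets. The within-group SD of these genes lay between 0.100 for Dcaf1 and 0.276 for Matn4, below those of Fos, Fosb, Atf3 and Egr1, and none was called in any comparison in limma (lowest adjusted p = 0.182, for Mgat1).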
